A study of Mus musculus with 6 samples.

Results

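The probes described here measure noncoding RNA in dendritic cells of the mouse intestine. They are the non-control array probes whose design accession begins with NR_, the prefix that RefSeq gives to noncoding transcripts, and they were chosen by the flag that the scanning software sets for a spot well above background, which had to be present on 3 or more of the 6 arrays. Signal on these same arrays therefore chose the members. The rule found 94 of the 2477 NR_ probes on the array, out of 56605 probes in all. The same filter kept 3661 probes with an NM_ accession, the prefix for protein-coding messages, and 4958 probes of every class. The 94 probes stood for 86 genes or accessions. A RefSeq table gave a symbol to 85 probes of 79 genes, and the other 9 probes are known by their 7 accessions only. Of the named genes, 48 had a provisional symbol (Gm or Rik).

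The RNA came from C5aR+ LysoDC, lysozyme-expressing dendritic cells of the Peyer's patch that carry the receptor of the complement fragment C5a. Cells enriched for CD11c were sorted and cultured in medium with CSF-1 and a second factor that the labels spell CFS-2. There were 3 samples labelled C5a 0 nM, called untreated here, and 3 given 100 nM recombinant C5a for 3 h, with 1 single-colour Agilent array each. Strain, age, the culture time of the untreated samples and whether samples came from separate animals are not given in the sources used here, so a p-value here reflects only how far these samples scatter, in part perhaps for technical reasons. In sorted bulk samples, fewer cells of a type and less RNA per cell cannot be told apart.

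Noncoding RNAs fall into classes with separate work in the cell. Small nuclear RNAs build the spliceosome, 7SK holds back the elongation factor P-TEFb, and ribosomal RNA forms the core of the ribosome. Small nucleolar RNAs guide the modification of ribosomal RNA, and many are cut from the introns of host transcripts named Snhg. Long noncoding RNAs (lncRNAs) are long transcripts, many of them spliced, with no long reading frame. Some of them, such as Mir22hg, are processed into a microRNA. Transcribed pseudogenes are copies of coding genes whose RNA can differ little from that of the parent, so a probe may also bind the parent's message, and their values are uncertain for that reason.

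Mir22hg, the host transcript of miR-22, was 1 of 2 members with an unadjusted p under 0.05 between the groups, and its mature products are shown because they are what the host is known for; the array probe measured the host transcript and not the microRNA. Both arms lie inside Mir22hg on the plus strand of GRCm38.p6 (chr11:75463734-75463755 and chr11:75463772-75463793, sequences from RefSeq). Capitals mark the seed, bases 2 to 8, and each seed occurred in 1 of 1679 mature mouse microRNA names in the table:
mmu-miR-22-5p: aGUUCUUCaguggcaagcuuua
mmu-miR-22-3p: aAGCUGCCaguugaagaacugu

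The 4 kept Snhg genes are shown by the 50 bases around their annotated start, since host genes of small nucleolar RNAs are known for starts with a C followed by a run of C and T (a terminal oligopyrimidine start). The first 25 bases lie before the start and the last 25 after it, all on the minus strand of GRCm38.p6, and capitals mark the run of C and T where the transcript begins with C and the run after it has at least 4 bases. The windows lie at chr2:26640220-26640269, chr3:123508312-123508361, chr17:24719941-24719990 and chr11:6528736-6528785:
Snhg7: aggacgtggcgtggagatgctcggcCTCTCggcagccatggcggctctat
Snhg8: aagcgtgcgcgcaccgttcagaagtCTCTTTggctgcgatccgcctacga
Snhg9: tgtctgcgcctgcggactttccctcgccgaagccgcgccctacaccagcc
Snhg15: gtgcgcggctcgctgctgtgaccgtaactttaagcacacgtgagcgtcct
Snhg7 and Snhg8 had such a start at the annotated position, and the annotated starts of Snhg9 and Snhg15 did not begin with C. Of the 31 member genes with a window in the table, these 2 were the members with this start, which 2.51% of all 32851 windows had.

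The windows from 250 bases before to 50 after the start are shown for the 2 members with an unadjusted p under 0.05. They are 1110006O24Rik (chr5:115631767-115632066, minus strand) and Mir22hg (chr11:75461289-75461588, plus strand), with capitals for GC boxes (GGGCGG on either strand):
1110006O24Rik: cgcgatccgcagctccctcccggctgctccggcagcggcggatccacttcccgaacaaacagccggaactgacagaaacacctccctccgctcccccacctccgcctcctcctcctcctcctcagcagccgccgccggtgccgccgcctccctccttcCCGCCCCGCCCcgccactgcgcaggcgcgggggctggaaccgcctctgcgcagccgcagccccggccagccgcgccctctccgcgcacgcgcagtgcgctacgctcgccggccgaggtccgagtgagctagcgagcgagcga
Mir22hg: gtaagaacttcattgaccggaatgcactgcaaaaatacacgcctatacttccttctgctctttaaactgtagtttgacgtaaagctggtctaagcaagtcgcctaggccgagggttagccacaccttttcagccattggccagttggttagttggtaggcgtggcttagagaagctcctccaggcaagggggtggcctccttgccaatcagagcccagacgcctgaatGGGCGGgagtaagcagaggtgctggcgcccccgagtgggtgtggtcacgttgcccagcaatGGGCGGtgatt
The 1110006O24Rik window was 75% G and C and the Mir22hg window 54.7%, against a median of 52.7% over all windows. Each held 2 GC boxes, a motif found on either strand in 35.7% of all windows of this length. The Mir22hg window also held 2 CCAAT boxes (CCAAT, in 37.4% of windows) and 1 match to GGGNNNNNCC, a loose form of the NF-kB motif that 50.8% of windows contain. Neither window held TGANTCA (AP-1, in 7.81% of windows), TGACGTCA (the cAMP response element, in 1.79%) or TATAAA (in 13.6%). Among the 31 member windows, 1 held the AP-1 letters, 3 the cAMP response element, 15 the NF-kB form, 3 TATAAA, 6 CCAAT and 14 a GC box.

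On each array 2728 to 6959 probes were well above background, and 2371 probes were on all 6. The arrays differed in brightness. The 75th percentile of processed signal over those 2371 probes was 163 (untreated 1), 459 (untreated 2) and 109 units (untreated 3), and 254, 377 and 154 units on the C5a arrays in the same order, and this percentile was subtracted on the log2 scale before any comparison. The 6 arrays lay on 1 slide, with C5a 2 and C5a 3 in the second row and the other 4 in the first. The sorted cells were checked against markers of mononuclear phagocytes, of which 16 of 18 were kept and Cx3cr1 and Mertk were on 0 arrays. None of the 8 epithelial, 3 Paneth cell, 8 stromal and endothelial or 7 granulocyte and mast cell markers was kept. Of the B cell markers 1 of 8 was kept (Cd79b), of the T cell markers 1 of 8 (Il7r), and of the plasmacytoid dendritic cell markers 4 of 5. The summed phagocyte marker signal was 6.29 to 6.57 in untreated and 5.99 to 6.31 in C5a samples. Its part in the differences below was not tested. Summed B cell signal was -2.42 to -1.19 in untreated and -2.77 to -1.65 in C5a samples, and that of plasmacytoid markers -0.92 to 0.20 and -0.99 to 0.20, on the scaled log2 scale.

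A smaller share of noncoding than of coding probes was detected. The filter kept 3.79% of the NR probes, against 12.4% of 29638 NM probes and 8.76% of all probes. On 0 arrays were 94.1% of the NR probes and 80.1% of the NM probes. These shares come from the flags that chose the members and are given as a description. They differed between the kinds of gene in the RefSeq table: 40 of 2038 lncRNA probes were kept (1.96%) and 36 of 276 transcribed pseudogene probes (13%), the latter close to the share of coding probes. Small nuclear RNA passed with 4 of 7 probes, ribosomal RNA with 2 of 2, the small cytoplasmic RNA Rn7s1 with 1 of 1 and small nucleolar RNA with 1 of 11 (Snora73a). Another member, Gm14296, is listed as protein-coding in the table although its array accession begins with NR_, as are the genes of 51 NR probes in all.

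Members that passed were detected on many arrays. Of the 94, 56 were well above background on all 6 arrays, 17 on 5, 13 on 4 and 8 on 3. The share on all 6 was 59.6%, against 42.8% of the kept NM probes. By kind, 28 of 36 pseudogene probes and 18 of 40 lncRNA probes were on all 6. No member was on all arrays of one group and none of the other.

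The kept noncoding probes were brighter than the kept coding probes. Their median level over the arrays was -2.19 (quartiles -3.24 and -0.25) against -2.93 (quartiles -3.74 and -1.65) for NM probes, as log2 processed signal less the array's percentile. The NR median lay above the NM median on 6 of 6 arrays, by 0.75 ± 0.23 (SD over 6 arrays; 0.41 to 1.07). Among probes on all 6 arrays this difference was 0.77 ± 0.10. The level is part of the rule, so no test was made, and probes differ in how strongly they bind, so the distributions are not amounts of RNA. The kinds differed: the pseudogene median stood 2.06 ± 0.11 above the NM median, higher on 6 of 6 arrays, while the lncRNA median differed from it by -0.04 ± 0.39 and was higher on 2 of 6. With background correction by normexp the NR median was 0.29 above the NM median, and with no filter on dim probes it was 0.13 below (a difference of -0.13).

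By the listing in the RefSeq table, the 8 named genes with the highest signal were 2 ribosomal RNA genes, 2 lncRNAs, 3 pseudogenes and 1 unmatched accession. The table does not say whether an unmatched accession is ribosomal RNA. Samples are given here and below in the order of their numbers. NR_003278 had 8.68, 7.69 and 8.51 in untreated and 8.13, 8.22 and 8.71 in C5a samples. Rn4.5s, the rodent 4.5S RNA, had 5, 3.99 and 4.33 in untreated and 4, 4.09 and 4.52 in C5a samples. In both, the 2 groups overlapped, and the difference (C5a minus untreated) was 0.06 (SE 0.35) for NR_003278 and -0.24 (SE 0.34) for Rn4.5s. Gm20751, a lncRNA by its table entry, had 1.98, 2.80 and 2.57 in untreated and 2.5, 3.59 and 2.81 in C5a samples. C5a 2 was its highest sample and untreated 1 its lowest, and the groups overlapped (difference 0.52, SE 0.38). The pseudogenes Gm5523, Gm6607 and Gm15772 had mean levels of 2.06, 1.85 and 1.60 and differences of -0.12, 0.06 and -0.04.

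Variation between arrays was set against that of coding probes by each probe's SD within groups. Its median was 0.43 for the NR members, 0.50 for NM probes and 0.47 for all kept probes. Among probes on all 6 arrays the medians were 0.37 and 0.35. With all kept probes cut into 5 bins of equal size by mean level, from dim to bright, the NR medians were 0.66, 0.71, 0.38, 0.41 and 0.29 (10, 18, 18, 17 and 31 probes) and the NM medians 0.67, 0.56, 0.44, 0.39 and 0.36. The first 4 of these NR bins hold under 20 probes each, so no order is read from single bins. lncRNA members varied more (median 0.51) than pseudogene members (0.27), and they were also dimmer. The correlation between pairs of arrays over the 94 members ran from 0.868 to 0.975 (median 0.930) and over NM probes from 0.825 to 0.958, a description across probes that share arrays.

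With 1 probe taken per gene, the one with the highest mean, the steadiest on all 6 arrays were pseudogenes. Gm10653 held -0.29, -0.34 and -0.15 in untreated and -0.32, -0.49 and -0.13 in C5a samples. Gm6525, Gm11517 and Gm15772 had SDs within groups of 0.15, 0.14 and 0.14. The dimmer of the 2 probes of the pseudogene Gm8580 had the lowest SD of the 94 probes (0.08), with -2.34, -2.25 and -2.34 and then -2.47, -2.28 and -2.36. The least steady on all 6 arrays was Gm6498, also a pseudogene, with 1.49, 1.79 and 1.30 in untreated and 1.85, 0.94 and -0.81 in C5a samples. Its low value is in C5a 3 alone, and its difference was -0.87 (SE 0.64). E130304I02Rik, AU040972 and A530006G24Rik, all lncRNAs, followed with SDs of 0.90, 0.57 and 0.57. Scarletltr, a lncRNA on 5 arrays chosen for mention after its values were seen, had the highest SD of the 94 (2.75). Its values were -0.48, -3.29 and -0.44 in untreated and -6.25, -0.38 and 0.05 in C5a samples. The C5a 1 signal was 3.33 units before scaling, near background, so that level is only an upper bound.

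The question of the series is what C5a changes in these cells. No noncoding member passed the threshold. With limma's moderated test and Benjamini-Hochberg adjustment over all 4958 kept probes, 0 of 94 members and 0 of all probes (0%) had an adjusted p under 0.05, the lowest adjusted p being 0.9997. At an unadjusted p under 0.05 there were 2 members, both higher with C5a, beside 118 of all kept probes (2.38%; 1.59% higher and 0.787% lower). With the replicate number as a block the count over all probes was 129 higher (2.6%) and 92 lower (1.86%), 4.46% together, while the 2 members were again 1110006O24Rik and Mir22hg and 0 probes passed the adjustment. The lean of the unadjusted calls to higher values depended on the setting: over all kept probes there were 7 higher (0.141%) and 25 lower (0.504%) with normexp, 58 and 138 with the slide row as a covariate, and 91 (1.15%) and 239 (3.01%) with the filter on at least 1 array. Members with an unadjusted p under 0.05 were 0 in both directions with normexp and 2 in each direction of 146 with the filter on at least 1 array. Without C5a 2 they were 0 higher and 1 lower, beside 1.01% and 1.19% of all kept probes. They were also 0 with the percentile over all probes, beside 24 higher and 17 lower of all 4958. With the filter on all 6 arrays they were 0, beside 15 higher and 22 lower of 2371. The 2 members of the main fit had the flag on 1 untreated and 3 C5a arrays, so they passed the filter through the C5a samples. The 3 samples of one group lay all above those of the other in 5 members (5.32%), 4 higher and 1 lower with C5a, against 5.79% of all kept probes (3.37% higher, 2.42% lower). That share is near the background and is no result about the members.

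Differences were small over the members as a group. Their median was -0.05 (quartiles -0.19 and 0.15, range -1.78 to 1.11), beside 0.04 for NM probes and 0.03 for all kept probes, and the median SE of a member was 0.35. There were 41 members with a positive and 53 with a negative difference, where 54.2% of all kept probes were positive. This split followed the scaling: with the percentile taken over all probes of the array, 83 of 94 members and 86.6% of all probes were positive and the median of all probes was 0.40, and with normexp 24 members and 21.5% of all probes were, with a median of -0.12. With quantile normalization 42 members and 62.4% of all probes were positive. By kind, the median was 0.02 over 40 lncRNA probes, with 21 positive, and -0.06 over 36 pseudogene probes, with 13 positive.

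By kind, differences ran from -1.23 to 1.11 over the lncRNA probes, from -0.87 to 0.68 over the pseudogene probes, from -1.78 to -0.13 over the 4 small nuclear RNA probes and from -0.43 to 0.45 over the 9 probes without a match in the table. Gm14296, the member listed as protein-coding, had -3.10, -3.20 and -3.32 in untreated and -3.10, -2.40 and -2.17 in C5a samples. C5a 1 equalled untreated 1 to 2 decimals, and C5a 2 and C5a 3 were above all untreated samples (difference 0.65, SE 0.32). The lncRNA 1700080N15Rik had -3.01, -4.31 and -2.43 in untreated and -5.97, -3.58 and -2.98 in C5a samples, with C5a 1 far below the rest (-0.93, SE 0.84). That C5a 1 signal was 4.04 units before scaling, near background, so its level is only an upper bound. Among the accessions without a symbol, NR_003280 had 0.56, 1.07 and 1.19 and then 1.02, 1.17 and 1.29, with overlap (0.22, SE 0.28), and NR_105032 had -3.70, -2.73 and -2.48 and then -2.53, -2.62 and -2.41, with untreated 1 the low sample (0.45, SE 0.37).

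1110006O24Rik, a lncRNA of unstated function whose start region is shown above, had the smallest unadjusted p. Its 3 untreated values, in the order of their numbers, were -3.78, -3.36 and -4.12, and its C5a values -2.84, -2.12 and -2.96. Every C5a sample was above every untreated one. The means were -3.75 ± 0.38 and -2.64 ± 0.45 (SD, n = 3 each), a difference of 1.11 (SE 0.35, 95% interval 0.29 to 1.93), with an adjusted p of 0.9997 by limma. The flag for signal above background was set on 1 untreated array and on all 3 C5a arrays. The difference was 0.25 with normexp and 1.48 with the percentile over all probes. With the slide row as a covariate it was 0.91, which is C5a 1 against the untreated samples of the same row.

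Mir22hg had -5.34, -4.14 and -4.84 in untreated and -3.97, -4 and -3.33 in C5a samples. C5a 3 was highest, untreated 1 lowest, and the groups were apart by the gap between untreated 2 and C5a 2. The means were -4.77 ± 0.61 and -3.77 ± 0.38 (SD, n = 3 each), a difference of 1.01 (SE 0.39, 95% interval 0.09 to 1.92), with an adjusted p of 0.9997 by limma. Before scaling, untreated 1 had 4.02 units and untreated 3 had 3.79. These are near background, so those levels are only upper bounds, and the untreated mean, the difference and the interval rest on them. Here too 1 untreated array and 3 C5a arrays had the flag, and the sign turned with normexp (-0.08). With the slide row as a covariate the difference was 0.80, and under that fit 0 members were higher and 6 lower at an unadjusted p under 0.05, beside 1.17% of all kept probes higher and 2.78% lower.

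Host genes of small nucleolar RNAs were described by a list of 27, of which 22 were on the array, 15 were on 0 arrays and 6 were kept: Snhg7, Snhg8, Snhg9 and Snhg15 among the members, and the coding genes Eef1a1, a translation elongation factor, and Rack1, a ribosomal protein. None of the 6 passed the threshold, and 3 had a positive and 3 a negative difference (median 0.04). Snhg15 had -3.22, -3.61 and -3.55 in untreated and -2.75, -3.05 and -3.11 in C5a samples by the first of its 2 probes, with no overlap (0.49, SE 0.27). Its second probe had -3.99, -4.71 and -2.24 and then -3.09, -4 and -4.35, with overlap and the opposite sign (-0.17, SE 0.66). The 2 probes of Snhg15 thus gave no common direction, and the first turned sign with normexp (-0.05). The first probe had the flag on 1 untreated and 3 C5a arrays, so it passed the filter through the C5a samples.

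Snhg7 had -3.35, -5.20 and -5.50 in untreated and -6.72, -4.89 and -6.12 in C5a samples. Untreated 1 was its highest sample, and C5a 2 lay above 2 untreated samples (difference -1.23, SE 0.69). Before scaling, untreated 3 had 2.41 units, C5a 1 had 2.4 and C5a 3 had 2.21. These are near background, so those levels are only upper bounds. Snhg9 had -3.77, -3.73 and -2.77 and then -6.45, -3.62 and -3.34, with C5a 1 alone far below the rest (difference -1.05, SE 0.82). That C5a 1 signal was 2.89 units before scaling, near background, so its level is only an upper bound. Snhg8, with -2.05, -1.86 and -2.36 and then -1.78, -1.99 and -3.17, differed by -0.22 (SE 0.41). Neither of the 2 genes with a terminal oligopyrimidine start, Snhg7 and Snhg8, passed the threshold. Snora73a, a box H/ACA small nucleolar RNA, had a difference of -0.42 (SE 0.56).

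Structural RNAs of the ribosome and spliceosome did not pass the test either. Rn28s1, the 28S ribosomal RNA, had 5.19, 5.17 and 5.24 in untreated and 5.41, 5.47 and 5.86 in C5a samples. All C5a samples were higher (difference 0.38, SE 0.26, 95% interval -0.23 to 0.99), but with quantile normalization the difference was -0.02. The 4 small nuclear RNA probes all had negative differences. Rnu1b6, a U1 gene, had -0.74, -1.88 and -1.04 in untreated and -1.20, -1.92 and -5.89 in C5a samples. C5a 3 alone was low, and the difference was -1.78 (SE 1.15). The C5a 3 signal was 2.6 units before scaling, near background, so that level is only an upper bound. The other U1 probes, Rnu1b1 and Rnu1a1, differed by -0.22 (SE 0.33) and -0.18 (SE 0.40), and near-identical U1 copies may share probes. Rn7sk differed by -0.13 (SE 0.41) and Rn7s1, a 7SL RNA of the signal recognition particle, by -0.16 (SE 0.28).

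Transcribed pseudogenes had the lowest median SD within groups of the kinds with more than 4 probes (0.27). Gm5779 was the pseudogene whose groups did not overlap, with -2.85, -2.14 and -2.63 in untreated and -3.23, -2.96 and -2.92 in C5a samples. All C5a samples were lower, by -0.50 on average (SE 0.29, 95% interval -1.18 to 0.19). Where a symbol names the parent gene and a parent probe was kept, both can be set side by side. Selenok, Gpr137b and Hmgb1 had 2 kept probes each, of which only the brighter is given. Selenok-ps1 differed by 0.14 and Selenok by 0.11, and Gpr137b-ps by 0.11 and Gpr137b by 0.06. Pisd-ps1 and Pisd-ps3 differed by 0.47 and 0.48, and Pisd, a mitochondrial phospholipid enzyme, by 0.10. Hmgb1-rs17 differed by -0.16 (SE 0.46), whereas that probe of its parent Hmgb1, a chromatin protein, differed by 1.12 (SE 0.39). The Hmgb1 probe was dim, with a mean level of -3.22. Marcksl1-ps4 differed by 0.02 (SE 1.01) and Marcksl1 by 0.50 (SE 0.66). H2-K2, a copy in the MHC class I family, held 1.19, 1.75 and 0.98 in untreated and 1.22, 1.40 and 0.96 in C5a samples, with overlap.

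Several members were measured by more than 1 kept probe. Probes of 1 gene could lie at unlike levels, as for Gm8580 with means of 1.15 and -2.34. Whether they read the same transcript was not tested. The 3 probes of Gm5069 (-0.24, -0.59 and -0.10), the 3 of Gm6981 (-0.21, -0.16 and -0.21) and the 2 of Gm8580 (-0.01 and -0.06) had the same sign within a gene, as did the 2 of NR_033146 (-0.33 and -0.11). The Gm8580 differences had SEs of 0.28 and 0.24, so their sign is not settled. The probes of NR_002840 (-0.25 and 0.25) and of Snhg15 had opposite signs. No gene had both a kept NR and a kept NM probe.

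Norad, a long RNA that binds Pumilio proteins, was the only kept gene of 8 on the array in a list of long nuclear and architectural RNAs, of which 6 were on 0 arrays. It had -1.30, -0.69 and -1.35 in untreated and -0.92, -0.66 and -1.37 in C5a samples, with number 2 the highest sample in each group (difference 0.13, SE 0.32). Chaserr, known for restraining its neighbour Chd2, had -3.25, -3.14 and -5.15 in untreated and -2.96, -3.01 and -4.26 in C5a samples, with number 3 the lowest in each group (0.43, SE 0.63). Chaserr had the flag on 2 arrays of each group. Its untreated 3 signal was 3.06 units before scaling, near background, so that level is only an upper bound. The chosen lists left few genes: 0 of 2 X inactivation RNAs, 0 of 7 imprinted RNAs and 0 of 13 lncRNAs of immune or stress responses were kept, and 1 of 9 microRNA hosts, which was Mir22hg. Of these lists, 2, 5, 11 and 8 genes respectively were on 0 arrays. Some genes that were not kept had signal above background on fewer arrays: AW112010 and Morrbid on 2, and Kcnq1ot1 and Peg13 on 1. The filter does not show that an unkept gene is absent.

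Proteins that make or bind noncoding RNA were measured in the same fit, and 0 members of the 5 protein lists passed the threshold in either direction, at the adjusted or the unadjusted level. Of 13 microRNA processing genes 3 were kept. Ago2, the slicing Argonaute, had -2.98, -1.82 and -3.36 in untreated and -1.98, -1.91 and -1.72 in C5a samples, with untreated 2 inside the C5a range (0.85, SE 0.42). Tarbp2, a partner of Dicer, had the opposite sign (-1.15, SE 0.58). Of 10 snoRNP core genes 4 were kept, led by Nhp2 (1.23, SE 0.90) and Snu13 (0.32). Of 15 nonsense-mediated decay genes 3 were kept, among them the exon junction proteins Rbm8a (0.41) and Magoh (-0.20). Of 15 exosome genes 3 were kept, among them Exosc6 (-0.46) and Exosc2 (0.04), and of 8 paraspeckle genes 5, among them Nono (0.47). With normexp Ago2, Tarbp2, Magoh, Exosc6 and Exosc2 kept their sign. Nhp2 (-0.20), Snu13 (-0.21), Rbm8a (-0.15) and Nono (-0.20) turned sign, and each of these had the flag on 1 untreated array.

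The coding genes next to members were looked up within 2000 bases in the RefSeq table. Of 79 named member genes, 43 had a coding neighbour and 7 a kept one. Rab35, a membrane traffic GTPase, lies beside 1110006O24Rik, and Tlcd2 beside Mir22hg. Rps2, a ribosomal protein gene beside Snhg9, differed by -0.18 (SE 0.26). For Rps2 and Tlcd2, with 2 kept probes each, only the brighter is given. For the 2 members with the smallest p, the neighbours differed by -0.31 (Rab35, SE 0.25) and -0.19 (Tlcd2, SE 0.29). Both signs are opposite to those of the members. The SEs are near the size of these differences, so no relation between member and neighbour is read from them.

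At the edge of the filter, the brightest members on exactly 3 arrays were Hmgb1-rs17, Gm11240, Gm15850 and 6530402F18Rik, with mean levels from -3.58 to -4.17. Just outside, 16 NR probes were on exactly 2 arrays, the brightest being AW112010, Gm3704, NR_024619 and a second probe of Gm8709, from -3.78 to -4.12. AW112010, a transcript known from immune activation, had -3.72, -2.47 and -4.82 in untreated and -4.87, -2.72 and -4.06 in C5a samples. The Gm8709 probe outside the filter had -2.89, -3.10 and -3.06 in untreated and -6.04, -4.43 and -5.22 in C5a samples, whereas the kept probe of the gene had 0.31, 0.93 and 0.28 and then 0.64, 0.48 and -0.43. The first pair of groups did not overlap (-2.21) and the second did (-0.27). The probe outside the filter had the flag on untreated 1 and untreated 2 and on no C5a array, so its C5a levels are only upper bounds. The sizes of the 2 differences can therefore not be compared.

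Samples with the number 3 were compared with the other 4, a comparison added after the data were seen. Both samples with the number 1 were the 2 highest of the 6 in 10 members (10.6%), beside 14.7% of NM probes. For number 2 this was so in 6 members (6.38%), beside 10.4%. In 26 of 94 members both untreated 3 and C5a 3 were the 2 highest of the 6 samples, against 12.7% of NM probes, and among lncRNA members this was so in 15 of 40 probes. Both were the 2 lowest in 16 members (17%), beside 22.3% of NM probes, and among pseudogene members they were highest in 8 and lowest in 9 of 36. AA536875, a lncRNA among the brightest members, had 1.52, 1.71 and 2.51 in untreated and 1.83, 1.92 and 2.79 in C5a samples. I730030J21Rik had 0.91, 1.42 and 2.17 and then 1.44, 1.29 and 2.03, and 1700110I01Rik -0.49, -0.16 and 0.72 and then -0.12, -0.10 and 0.72. In these 3 lncRNAs both number 3 samples were at the top, and the difference with C5a was 0.27, 0.09 and 0.14. 2310002F09Rik (0.73 in untreated 3 and 0.76 in C5a 3, the other 4 samples from -0.23 to 0.11), Gm6994 (0.85 and 0.67, the others from -0.20 to 0.11) and A530006G24Rik (-0.05 and 0.19, the others from -1.26 to -0.70) had the same order. The 2 number 3 arrays were also the dimmest of their groups (109 and 154 units), and the order changed with the scaling; its cause was not tested. Before scaling, AA536875 had processed signals of 470, 1500, 618, 904, 1430 and 1060 units in the same order of samples, and 1 of the 40 lncRNA probes had both number 3 samples highest. That count was also 1 with the percentile over all probes, beside 0.219% of NM probes, 15 with quantile normalization, beside 12%, and 17 with normexp, beside 34.1%. Over all kept probes, deviations of samples that share a number correlated by 0.22, 0.27 and 0.38 for numbers 1 to 3, and over the 94 members by 0.02, -0.02 and 0.49; these are descriptions across probes.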

How the data were processed

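RNA of 6 samples was measured on 1-colour Agilent arrays. Per the file headers, spots were read with Agilent Feature Extraction 10.10.1.1 (protocol GE1_1100_Jul11), and the deposited files hold a processed intensity per spot, with background subtracted, and flags scored 0 or 1. The authors' series table, deposited as log2 values, served as an alternative; differences between its columns match those of the processed signal after scaling to a 75th percentile taken over the whole array, its column medians run from -0.08 to 0.22, and its baseline per probe is unknown.

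Of 62976 spots, 59305 were no controls and gave 56605 probes. Outlier spots (112 to 138 per array) were left out unless a probe had no other, spots were averaged as log2, and a probe was well above background where at least 0.5 of its spots were. No spot was saturated. Each array's 75th percentile over probes well above background on all 6 arrays was subtracted. Probes well above background on at least 3 arrays were fitted with limma 3.58.1 (R 4.3.3; lmFit, eBayes; Benjamini-Hochberg over all kept probes, threshold 0.05), tested on simulated data. The number of arrays limits precision.

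Accessions were named without versions through a RefSeq table (GRCm38.p6), which matched 32994 of the 56605 probes. With 1 probe per gene (the kept NR probe with the highest mean), the named genes were those with the 6 smallest p in each direction, the 8 highest means, the 4 largest and 4 smallest SDs on all 6 arrays, kept list members, the 4 brightest on exactly 3 and exactly 2 arrays, and 2 genes per protein list, of which 1 is not reported here. Members and lists were chosen with earlier results of these data known. The labels do not say whether samples with the same number are pairs, and the main fit used no pairing. Same-numbered deviations correlated by 0.22, 0.27 and 0.38 over all kept probes, and by 0.02, -0.02 and 0.49 over the members. A fit with the number as a block therefore served as an alternative. Normexp (offset 50) was run on the median spot signal in place of the planned mean signal.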

Additional observations from a re-analysis of the deposited data

How the results depend on the processing

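No probe passed the adjusted threshold, among members or all kept probes, under another scaling, background correction, outlier or spot rule, with 1 probe per gene, the slide row, the replicate block or any 1 sample left out. The exception was no filter on dim probes, where 2 NR probes (6430562O15Rik and 7420701I03Rik, each well above background on 1 array, which sets its difference) and 48 of all probes passed, 42 of them on at most 1 array. With the replicate block the count was 0 for members and for all probes.

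The median difference over members (main -0.05) was 0.31 with the percentile over all probes and in the deposited series table, and -0.42 with no filter; leaving out a sample gave -0.07 to 0.01. The NR minus NM level (main 0.75) was 0.29 with normexp and reversed to -0.13 with no filter, where probes at background are included; it was not computed on the series table. The NR minus NM median SD (main -0.06) was -0.13 with the percentile over all probes and in the series table, 0.00 with normexp, 0.02 with the filter on all 6 arrays, -0.01 on at least 1 and 0.01 with no filter; leaving out a sample gave -0.07 to -0.02, the latter without C5a replicate 1. The share of NR probes kept (main 3.79%) was 2.26% on all 6 arrays, 5.89% on at least 1 and 100% with no filter.

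Of 42 named probes, 32 turned sign under some alternative, 21 of them when a sample was left out, and 10, among them 1110006O24Rik, did not. The cause of these changes was not tested. The lncRNA count with both number 3 samples highest (15) was recomputed under 4 scalings chosen after seeing the data, as given in the report.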
